A study of Mus musculus with 4 samples.

Results

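The 10 genes of calcium release and reuptake followed here were Ryr1, Ryr3, Cacna1s, Cacnb1, Cacng1, Atp2a1, Atp2a2, Casq1, Casq2 and Sln. They were taken by symbol, as the rows whose identifier equals one of these names, and all 10 were found in each of the 4 deposited tables, among 24850 named entries in the total RNA tables and 24992 in the polyA tables. The rule used no measured value, but these genes and the gene lists below were chosen with earlier results of these data known.

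The data came from C2C12, an established line of mouse myoblasts that stop dividing and fuse into multinucleated myotubes once the serum in the medium is lowered. Total RNA freed of rRNA was sequenced from proliferating myoblasts (MB), collected at -24 h relative to the change to differentiation medium (DM), and from myotubes (MT) at DM 72 h. PolyA RNA was sequenced at DM 48 h from cells labelled as MT that received a control siRNA (si-NC) or a siRNA against hnRNPL (si-hnRNPL), an RNA binding protein. Each condition had 1 library, so no difference below could be set against replicates, and p-values are not given. The labels name no other agent or genetic change. In bulk RNA of such cultures a larger share of differentiated cells and more RNA per cell cannot be told apart.

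In skeletal muscle, an action potential is sensed in the surface membrane by the L-type calcium channel, whose pore and sensor is Cacna1s. This channel opens ryanodine receptors in the facing sarcoplasmic reticulum (SR) by direct contact, calcium leaves the SR and contraction starts. Pumps of the SERCA family then return calcium to the SR, where calsequestrins hold it in reserve for the next release.

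Levels are given as FPKM, fragments scaled to the length of the transcript and the size of the library, each with the 95% interval of the deposited table. That interval covers counting and assignment error inside a library. Its width gives an implied number of fragments, which holds only where counting error alone sets the width. These numbers summed to between 14592480 and 59960176 per library. In the polyA libraries they ran low for some abundant genes. In si-NC the muscle gene Myog implied 7359 fragments at an FPKM of 175, and Acta1 only 2262 at 1009. The sums are thus not comparable as depth between total RNA and polyA libraries. A change is the log2 ratio of FPKM + 1, a scale on which low genes appear to change less than they do, with an interval built from both FPKM intervals. A gene was counted as up or down at a log2 change of 0.58 or more in size, a fold change of about 1.5.

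From MB to MT, 8 of the 10 genes rose and 0 fell, while Atp2a2 differed little on the deposited scale and Sln was listed at 0. Of all 24459 named entries compared, 7.91% rose and 13.8% fell. Of the 11758 entries that reached an FPKM of 1 in either library, which hold 9 of the 10 genes, 15.4% rose and 28.5% fell. The median log2 change of the 10 genes was 3.23, against 0 over all named entries and -0.20 over those 11758. Casq2 stood at place 13 and Atp2a1 at place 21 among these 11758 entries when ordered from the largest rise. The 8 genes that rose all stood within the first 347 places.

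**Figure D1:**
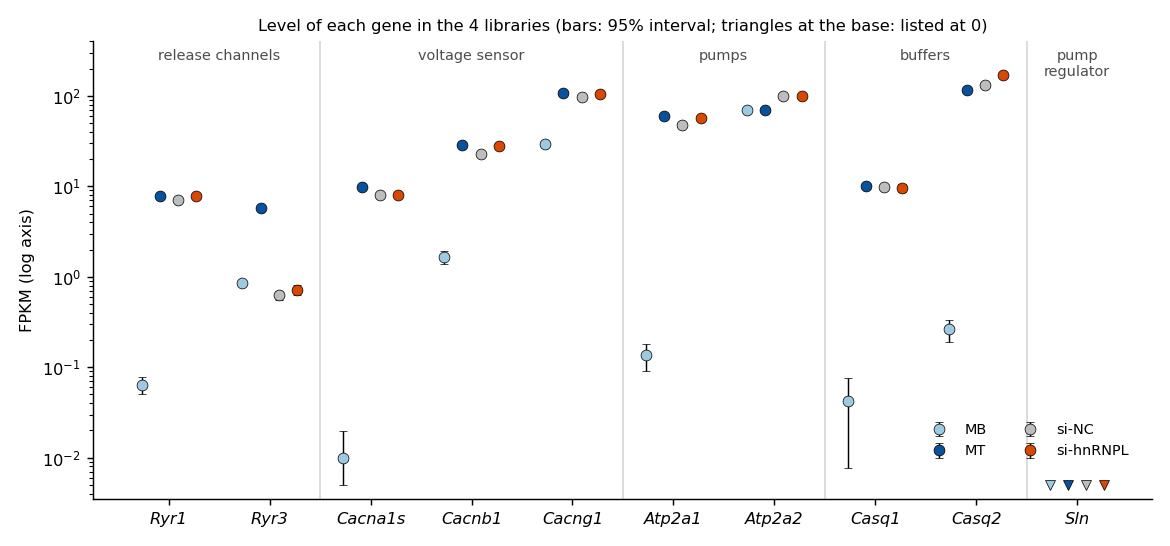
FPKM of the 10 genes on a log axis in the MB, MT, si-NC and si-hnRNPL libraries, with the deposited 95% interval as a bar and a triangle where a gene was listed at 0 (the lower bar of Cacna1s in MB is cut at the base of the axis). The MB points of Ryr1, Cacna1s, Atp2a1, Casq1 and Casq2 lie below 0.3 and the other libraries of these genes above 7, while the 4 points of Atp2a2 lie close together between 69.6 and 101.

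The sequence before the transcription start is printed for the gene with the largest plain ratio of FPKM from MB to MT in each role that had an entry in the table of RefSeq promoters, since these genes moved together. Capitals mark E-boxes (CANNTG, the same on both strands), the motif that MyoD and its relatives are known to bind, and sites of the MEF2 family, found by name on both strands. Each run holds the 250 bases before the start, 5′ to 3′ on the strand of the gene, and was placed in mm9 by an exact match that occurred 1 time on the chromosome.
Ryr1, chr7:29910171-29910420, minus strand: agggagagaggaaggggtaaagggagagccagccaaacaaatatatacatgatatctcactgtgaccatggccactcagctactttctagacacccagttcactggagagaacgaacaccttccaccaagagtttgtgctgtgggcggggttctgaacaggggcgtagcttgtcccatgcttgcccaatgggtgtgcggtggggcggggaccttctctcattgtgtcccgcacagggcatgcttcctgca
Cacna1s, chr1:137949138-137949387, plus strand: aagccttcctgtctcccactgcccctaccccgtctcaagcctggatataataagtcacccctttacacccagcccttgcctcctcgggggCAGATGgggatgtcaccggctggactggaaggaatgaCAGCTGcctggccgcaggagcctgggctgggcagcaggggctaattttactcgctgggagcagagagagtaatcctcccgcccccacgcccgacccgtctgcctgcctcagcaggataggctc
Atp2a1, chr7:133606588-133606837, minus strand: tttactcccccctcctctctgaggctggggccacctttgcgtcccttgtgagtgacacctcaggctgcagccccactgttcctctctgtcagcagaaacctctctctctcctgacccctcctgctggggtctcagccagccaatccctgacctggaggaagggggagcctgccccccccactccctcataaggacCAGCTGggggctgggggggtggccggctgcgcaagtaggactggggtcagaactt
Casq2, chr3:101890088-101890337, plus strand: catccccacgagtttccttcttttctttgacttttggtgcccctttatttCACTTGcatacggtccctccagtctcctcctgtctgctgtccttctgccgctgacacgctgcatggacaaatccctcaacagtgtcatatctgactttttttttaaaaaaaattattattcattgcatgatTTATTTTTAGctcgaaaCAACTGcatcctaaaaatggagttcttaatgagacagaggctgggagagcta

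The promoter of Cacna1s held CAGATG at 160 to 155 bases and CAGCTG at 123 to 118 bases before the start. The promoter of Atp2a1 held 1 E-box, CAGCTG, at 55 to 50 bases before the start. Casq2 had CACTTG at 200 to 195 bases and CAACTG at 52 to 47 bases, with a MEF2 match, TTATTTTTAG, at 69 to 60 bases. The window of Ryr1 held 0 E-boxes and 0 MEF2 matches. The table held 7 promoters for 6 of the 10 genes (Ryr1, Cacna1s, Cacnb1, Atp2a1, Casq1 and Casq2), and 5 of the 7 had an E-box, 3 had CAGCTG and 1 had a MEF2 match. Over all 32851 promoters of the table, 66.2% had an E-box, 13% had CAGCTG and 2.92% had a MEF2 match in the same window. Letters that match a motif are a description of the sequence, and binding was not measured in these tables.

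Both genes for release channels rose in MT. Ryr1, the main release channel of skeletal muscle (chromosome 7, 29788359 to 29910170 in mm9, 106 exon blocks in GENCODE), was at an FPKM of 0.0643 (0.0500 to 0.0786) in MB, 7.78 (7.62 to 7.93) in MT, 7.02 (6.79 to 7.25) with si-NC and 7.86 (7.56 to 8.16) with si-hnRNPL. Its log2 change from MB to MT was 3.04 (3.01 to 3.08), and the plain ratio of FPKM was 121 (96.8 to 151). The MB level rested on 81.0 implied fragments. The 3 libraries of differentiated cells were far above MB and differed little from one another.

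Ryr3, the isoform known for its expression in developing muscle and in brain (chromosome 2), followed another course. Its FPKM was 0.858 (0.806 to 0.910) in MB and 5.78 (5.65 to 5.91) in MT, a log2 change of 1.87 (1.82 to 1.92). In polyA RNA it was at 0.623 (0.555 to 0.690) with si-NC and 0.713 (0.622 to 0.804) with si-hnRNPL. The MT level was thus 9.28 times the si-NC level, whereas for the other 8 genes with a level above 0 this ratio lay between 0.691 and 1.26. The MT and si-NC libraries differ in RNA selection, time in DM, transfection and platform, and their parts in this ratio cannot be told apart. The tables also give Ryr3 different loci, 398950 bp long in the total RNA tables and 585702 bp in the polyA tables. Such a difference occurred for 1272 of 23409 symbols and for 1 of the 10 genes. The shorter locus still holds 105 of the 107 exon blocks that GENCODE gives for Ryr3.

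The total RNA tables also list transcript units that the authors assembled from the reads and that carry no gene name. Inside the Ryr3 locus 40 such units were listed, and inside the loci of the other 9 genes there were 0. Only 1 of the 40 overlapped an exon of Ryr3 in GENCODE, so 39 lay in introns. By the number of units inside, Ryr3 stood at place 64 of 23978 genes, and 83.9% of genes had 0. The median FPKM of the 40 units was 0.0920 in MB and 0.988 in MT, and their implied fragments summed to 102 in MB and 1018 in MT. All 40 were higher in MT and 38 passed the fold change upward. Of all 36780 such units compared, 79.3% were higher in MT and 19.8% passed it upward. A single unit held 0 to 10.0 implied fragments in MB and 10.0 to 83.0 in MT. Since the units were assembled from the reads of these same libraries, a unit had to be covered in at least 1 of them to be listed, so their higher level in MT is a description and not independent of how they were found. The tables give no strand for a unit, so whether these units belong to the pre-mRNA of Ryr3 was not tested. Malat1, Neat1 and Xist, RNAs that stay in the nucleus, also summed to a higher FPKM in MT (743) than in MB (200), and their part in the level of Ryr3 was not tested.

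**Figure D2:**
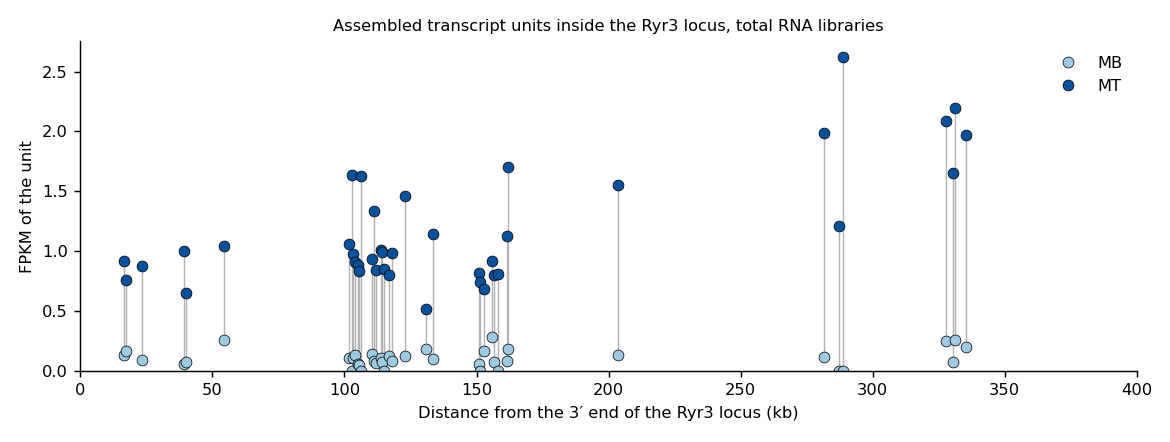
FPKM of the 40 unnamed transcript units inside the Ryr3 locus in MB and MT, set against the distance of each unit from the 3′ end of the locus in kb, with a line joining both values of a unit. The MT point of each unit lies above its MB point, from 0.513 to 2.62 in MT against 0 to 0.278 in MB, and the units are spread over the locus in several groups. Of all 36780 unnamed units compared, 79.3% were higher in MT.

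The shares of both receptors in their summed FPKM describe the balance of the pair inside a library, where scaling cancels. Ryr1 made up 6.97% (5.48 to 8.47) of the pair in MB, 57.4% (56.6 to 58.1) in MT, 91.9% (91.0 to 92.7) with si-NC and 91.7% (90.7 to 92.7) with si-hnRNPL. Thus Ryr3 was the larger in MB and Ryr1 in the other 3 libraries, and MT and si-NC differed by far more than their intervals.

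All 3 genes for subunits of the voltage sensor rose in MT. Cacna1s, the pore and sensor subunit (chromosome 1, 137949478 to 138016399), was at 0.010 (0.000219 to 0.0198) in MB, on 4.18 implied fragments, and at 9.80 (9.48 to 10.1) in MT, 7.94 (7.47 to 8.42) with si-NC and 8.07 (7.5 to 8.63) with si-hnRNPL. Its log2 change was 3.42 (3.37 to 3.46). The plain ratio of 979 had an interval from 368 to 2606, since so few fragments stood behind the MB value. The gene was thus close to undetected in MB and at a moderate level in every library of differentiated cells.

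Cacnb1, the beta subunit that brings the channel to the membrane (chromosome 11, 97862822 to 97883941), was at 1.65 (1.39 to 1.90) in MB, 28.7 (27.6 to 29.8) in MT, 22.8 (21.5 to 24.1) with si-NC and 27.9 (26.1 to 29.7) with si-hnRNPL, with a log2 change of 3.49 (3.34 to 3.64) from MB to MT. Cacng1, the gamma subunit of the muscle channel (chromosome 11, 107564532 to 107577790), was already at 29.3 (28.1 to 30.4) in MB. It reached 106 (104 to 108) in MT, 96.4 (93.1 to 99.8) with si-NC and 104 (100.0 to 109) with si-hnRNPL. Its log2 change of 1.83 (1.76 to 1.89) was the smallest among the 8 genes that rose. The subunits thus started from unlike levels in MB, and in each of the other 3 libraries Cacng1 stood above Cacnb1, and Cacnb1 above Cacna1s.

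Of both SERCA pumps, only Atp2a1 moved between MB and MT on the deposited scale. Atp2a1, which encodes the pump of fast muscle fibers SERCA1 (chromosome 7, 133589374 to 133606587), was at 0.136 (0.0914 to 0.181) in MB, 59.3 (58.3 to 60.2) in MT, 48.0 (45.7 to 50.4) with si-NC and 56.8 (53.9 to 59.7) with si-hnRNPL. The log2 change was 5.73 (5.67 to 5.79) and the plain ratio 435 (313 to 605). The end of its locus overlaps that of Rabep2, which stayed between 6.92 and 7.83 in the 4 libraries. Atp2a2, which encodes the pump SERCA2 of slow fibers, heart and most other cells (chromosome 5, 122903522 to 122952234), was at 70.0 (69.1 to 70.9) in MB, 69.6 (68.4 to 70.7) in MT, 101 (97.5 to 104) with si-NC and 99.4 (96.0 to 103) with si-hnRNPL. The log2 change between MB and MT was -0.0079 (-0.037 to 0.022). This level depends on scaling. Rescaling each library to the FPKM sum of its named entries put Atp2a2 at a log2 change of 1.06, past the fold change. The same step moved the entry median from -0.23 to 0.78. When that sum took only loci of 300 bp or more, Atp2a2 was at 0.56, and when centred on the entry median at 0.22, neither past the fold change.

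The pump pair was thus joined by Atp2a1 in MT, a shift in shares that holds under any scaling. Atp2a1 made up 0.194% (0.130 to 0.258) of the summed pump FPKM in MB, 46.0% (45.4 to 46.6) in MT, 32.3% (31.0 to 33.6) in si-NC and, in si-hnRNPL, 36.4% (34.9 to 37.8). The sum itself went from 70.1 in MB to 129 in MT. Atp2a2 stayed the larger of both in every library. Pln and Atp2a3, a pump inhibitor of heart and a pump of non-muscle cells, were below an FPKM of 0.4 in all 4 libraries.

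On the scale of FPKM + 1, Casq2 had the largest rise of the 10 genes, although with a pseudocount of 0.01 Cacna1s (8.94) passed it (8.73). Casq2, the calsequestrin of heart, slow and developing muscle (chromosome 3, 101890378 to 101950435), was at 0.261 (0.188 to 0.335) in MB, 115 (114 to 117) in MT, 133 (130 to 135) with si-NC and 171 (168 to 175) with si-hnRNPL, a log2 change of 6.53 (6.44 to 6.61) from MB to MT and a plain ratio of 442 (334 to 584). Casq1, the calsequestrin of fast muscle (chromosome 1, 174140025 to 174150026), was at 0.0422 (0.00775 to 0.0767) in MB on 6.0 implied fragments. It was at 10.2 (9.68 to 10.7) in MT, 9.85 (9.01 to 10.7) with si-NC and 9.69 (8.66 to 10.7) with si-hnRNPL, a log2 change of 3.43 (3.34 to 3.51). Casq2 was the most abundant of the 10 genes in each of the 3 libraries of differentiated cells.

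Casq2 made up 86.1% (75.8 to 96.4) of the calsequestrin pair in MB, 91.9% (91.5 to 92.3) in MT, 93.1% (92.5 to 93.6) with si-NC and 94.6% (94.1 to 95.2) with si-hnRNPL. The log2 change of the Casq1 to Casq2 ratio from MB to MT was -0.87, with an interval from -2.12 to 0.38. With 6.0 implied fragments of Casq1 in MB, a shift of the pair was not resolved in either direction.

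**Figure D3:**
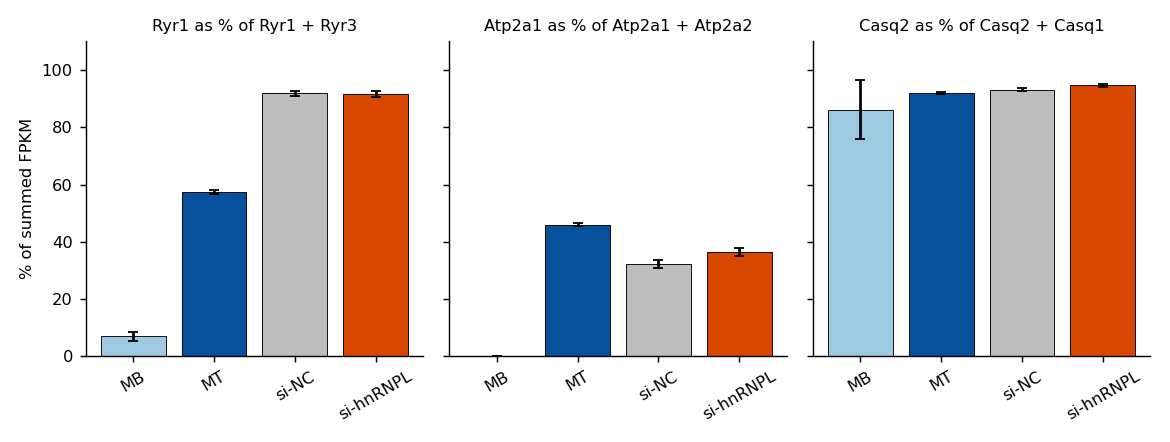
Share of Ryr1, Atp2a1 and Casq2 in the summed FPKM of its pair, in percent from 0, in each of the 4 libraries, with bars for the 95% interval. Ryr1 goes from 6.97% in MB to 57.4% in MT and above 91% in both polyA libraries, Atp2a1 from 0.194% to between 32.3% and 46.0%, and Casq2 stays above 86% throughout.

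Sln, which encodes sarcolipin, a small inhibitor of SERCA pumps (chromosome 9, 53698058 to 53701656, 515 bp of exon in GENCODE), was listed at 0 in all 4 libraries with the status OK. Judged from genes of like exon length, 3 fragments would correspond to an FPKM of about 0.0964 in MB, 0.0920 in MT, 0.334 in si-NC and 0.536 in si-hnRNPL. Of 75 genes for ribosomal proteins 0 were listed at 0 in any library. Their median FPKM lay between 319 in MT and 642 in si-hnRNPL, so their detection does not bear on the 0 of Sln. Among named genes of like exon length, between 49.7% and 61.6% were at 0. No fold change can be given for Sln.

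Ordered by level, Atp2a2 led in MB, followed by Cacng1 and Cacnb1, and the other 7 genes were below an FPKM of 1. In MT the order was Casq2, Cacng1, Atp2a2, Atp2a1, Cacnb1, Casq1, Cacna1s, Ryr1, Ryr3 and Sln. Neighbours in this order had separate intervals except Casq1 and Cacna1s in MT, and in MB the intervals of Ryr1, Casq1 and Cacna1s overlapped in turn. In si-NC Atp2a2 and Cacng1 overlapped, and in si-hnRNPL so did Cacng1 with Atp2a2 and Cacna1s with Ryr1. In the 3 libraries of differentiated cells, the RNA of the release channels and of the sensor subunit Cacna1s was thus lower than that of the pumps and Casq2.

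**Figure D4:**
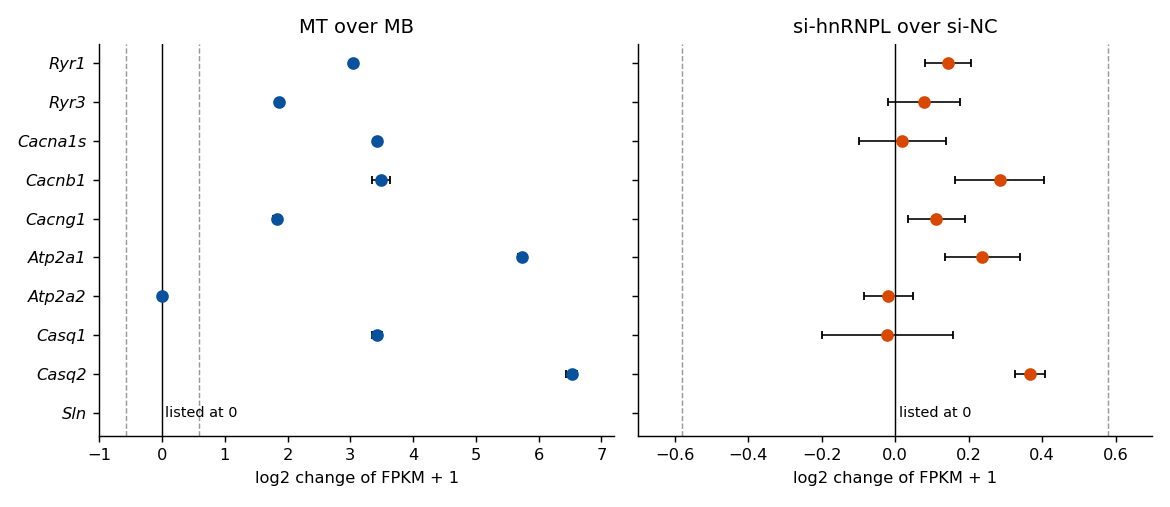
The log2 change of FPKM + 1 of each gene for MT over MB at left and si-hnRNPL over si-NC at right, with the interval from both FPKM intervals and dashed lines at 0.58 in either direction (the scales of the panels differ, and Sln was listed at 0). At left 8 genes lie beyond the dashed line, up to 6.53, and at right all lie inside it, the largest at 0.37.

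For the comparison of si-hnRNPL with si-NC, the mRNA targeted by the siRNA comes first. Hnrnpl was at 95.1 (92.7 to 97.5) with si-NC and 85.9 (83.1 to 88.7) with si-hnRNPL, or 90.4% of control, and at 111 in MB and 63.0 in MT. Its log2 change between the siRNA libraries was -0.14 (-0.20 to -0.085), lower but not past the fold change. This value concerns the mRNA only, since hnRNPL protein is not measured in these tables, and it does not show the extent of the knockdown.

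None of the 10 genes was past the fold change between si-hnRNPL and si-NC, where 0.688% of all 24991 named entries rose and 0.416% fell. Among the 11369 entries that reached an FPKM of 1 these shares were 1.44% and 0.888%. Smaller differences were seen for 5 genes, whose intervals lay above 0. The share of all named entries with intervals away from 0 was not counted, so this number has no background beside it. Casq2 was higher in si-hnRNPL by a log2 change of 0.37 (0.33 to 0.41), Cacnb1 by 0.28 (0.16 to 0.40), Atp2a1 by 0.24 (0.14 to 0.34), Ryr1 by 0.14 (0.080 to 0.21) and Cacng1 by 0.11 (0.034 to 0.19). The changes of Ryr3 (0.078, -0.020 to 0.18), Cacna1s (0.020, -0.099 to 0.14), Atp2a2 (-0.019, -0.085 to 0.048) and Casq1 (-0.021, -0.20 to 0.16) had intervals that held 0. The median over the 10 genes was 0.095, against 0 over all named entries. After rescaling to the FPKM sum of named entries, which moves the entry median from -0.011 to -0.12, the intervals of 3 genes (Casq2, Cacnb1 and Atp2a1) stayed above 0 and that of Atp2a2 lay below 0, at -0.13 (-0.20 to -0.068).

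Ratios inside a library, which do not depend on scaling, moved with these values. The ratio of Atp2a1 to Atp2a2 was higher in si-hnRNPL by 0.26 (0.14 to 0.38) on the log2 scale, and that of Casq1 to Casq2 was lower, at -0.39 (-0.59 to -0.19). The change of the Ryr1 to Ryr3 ratio, -0.031 (-0.28 to 0.22), held 0. These intervals cover error inside a library, not the spread between cultures.

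Markers of differentiation and of proliferation moved in the same comparison. Of 7 genes of differentiated muscle (Myog, Ckm, Acta1, Myh3, Tnnt3, Mb and Des) the intervals of 6 lay above 0 for si-hnRNPL over si-NC. The interval of Mb held 0, at 0.045 (-0.22 to 0.31). Of the 7 genes 2 passed the fold change, and the summed FPKM of the 7 was 3080 in si-hnRNPL against 2205 in si-NC. Of 8 genes of proliferating myoblasts (Mki67, Ccna2, Ccnb1, Cdk1, Top2a, Pcna, Id1 and Myf5) the intervals of 7 lay below 0. Id1 went the other way, at 0.25 (0.063 to 0.45). The summed FPKM of the 8 genes was 337 in si-hnRNPL against 444 in si-NC. The part of these markers in the differences of the calcium genes was not tested. From MB to MT the same lists moved much further, as 7 of 7 muscle genes rose, from a sum of 112 to 1501, and 7 of 8 proliferation genes fell, from 824 to 196. The exception was Myf5, at 13.8 and 13.6.

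Markers of most other tissues were low. The 6 heart genes (Myh6, Nppa, Nppb, Myl7, Tbx5 and Nkx2-5) summed to an FPKM between 1.91 and 4.23, and Myl7 and Nppa were at 0.07 or less. Nppb was the highest of them in each library, at 1.63 in MB, 0.850 in MT, 3.18 in si-NC and 1.60 in si-hnRNPL. It was past the fold change downward between the siRNA libraries (-0.68). Myh6 passed it upward from MB to MT, from 0.00309 to 0.705 (0.77). Adipocyte (4), bone (3) and nerve (4) genes were below 2 in every library, except for Tubb3 among the nerve genes at 11.4 to 56.4. Smooth muscle genes were not all low. Of the 4, Acta2 lay between 367 and 753 and Smtn between 13.2 and 38.5 in the 4 libraries. Cnn1 fell from 51.9 in MB to 1.35 in MT (log2 change -4.49) and was at 3.43 in si-NC and 3.84 in si-hnRNPL. Myh11, the defining myosin of that tissue, was below 0.1 in every library. All 7 muscle genes exceeded an FPKM of 1 in MT, si-NC and si-hnRNPL, and in MB Acta1 and Des did.

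A wider list of 47 other calcium genes was read in the same way, of which 46 were found. From MB to MT 12 rose and 7 fell, a median log2 change of 0.025. These are shares of 26.1% and 15.2%, beside the 7.91% and 13.8% given above for all entries. For entries that reached an FPKM of 1 in either library, as did 32 of the 46 genes, the shares were 15.4% and 28.5%.

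Genes for proteins of the junction between surface membrane and SR rose in 4 of 6 cases and fell in 0. Hrc, a calcium binding protein of the SR, went from 0.0478 in MB to 19.9 in MT (log2 change 4.32), and Jsrp1, a protein of the junctional SR, from 2.52 to 55.6 (4.01). Trdn, which ties calsequestrin to the release channel, was listed at 0 in MB and at 2.43 in MT. Jph1, a junctophilin that holds both membranes together, went from 4.02 to 9.93 (1.12). Jph2 (0.48) and Asph (-0.051) did not pass. Among the companions of the voltage sensor, Stac3, which is needed for its coupling to the release channel, went from 0.637 to 15.5 (3.33) and Cacna2d1, the alpha-2/delta subunit, from 8.65 to 26.4 (1.5). Its relative Stac2 fell, from 10.9 to 5.80 (-0.81). The pore subunits Cacna1c and Cacna1d, which are used in heart and nerve, stayed at or below 0.0203 in all libraries.

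Among genes around the release step 2 rose and 5 fell. S100a1, a calcium sensor that binds the release channel, went from 25.9 to 51.9 (0.98) and Fkbp1b, a channel stabilizer, from 3.18 to 5.35 (0.60). Its paralog Fkbp1a fell from 65.7 to 26.4 (-1.28). The receptor channels for inositol trisphosphate Itpr1 (5.83 to 3.29, -0.67) and Itpr3 (12.0 to 6.57, -0.78) fell too, as did the calmodulin genes Calm2 (286 to 163, -0.81) and Calm3 (123 to 79.9, -0.62). Ryr2, the release channel of heart, was at or below 0.00536 in every library. Whether and how far these genes fell depends on scaling. After centring on the entry median 14 of the 46 genes were up and 3 down, and after rescaling to the sum of named entries 27 were up and 0 down. Of the 7 genes that fell on the deposited scale only Fkbp1a kept its sign after that rescaling, at -0.24. When the sum took only loci of 300 bp or more, 20 of the 46 were up and 1 was down. The intervals of 5 of the 10 release genes then lay below 0.

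Among the other buffers, Srl, a sarcoplasmic reticulum protein, went from 1.20 to 65.5 (4.92) and Pvalb, a soluble calcium buffer of fast fibers, from 0.0330 to 3.98 (2.27). Calr, the calreticulin found in the reticulum of most cells, was at 435 and 292 (-0.57), just inside the fold change. Of the 5 genes of store-operated entry 0 rose, and Orai2 fell from 21.1 to 12.5 (-0.71). Of 7 genes that carry calcium out of the cell 2 rose, the pump gene Atp2b4 from 7.11 to 15.5 (1.02) and the sodium-calcium exchanger gene Slc8a1 from 0.871 to 3.08 (1.13). Between si-hnRNPL and si-NC 0 of the 46 genes passed in either direction, with a median of 0.0090. Intervals lay above 0 for 10 of them and below 0 for 11, numbers that have no count over all entries beside them. Of the 6 junction genes 4 had intervals above 0, and that of Asph lay below 0 (-0.13, -0.21 to -0.044).

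**Figure D5:**
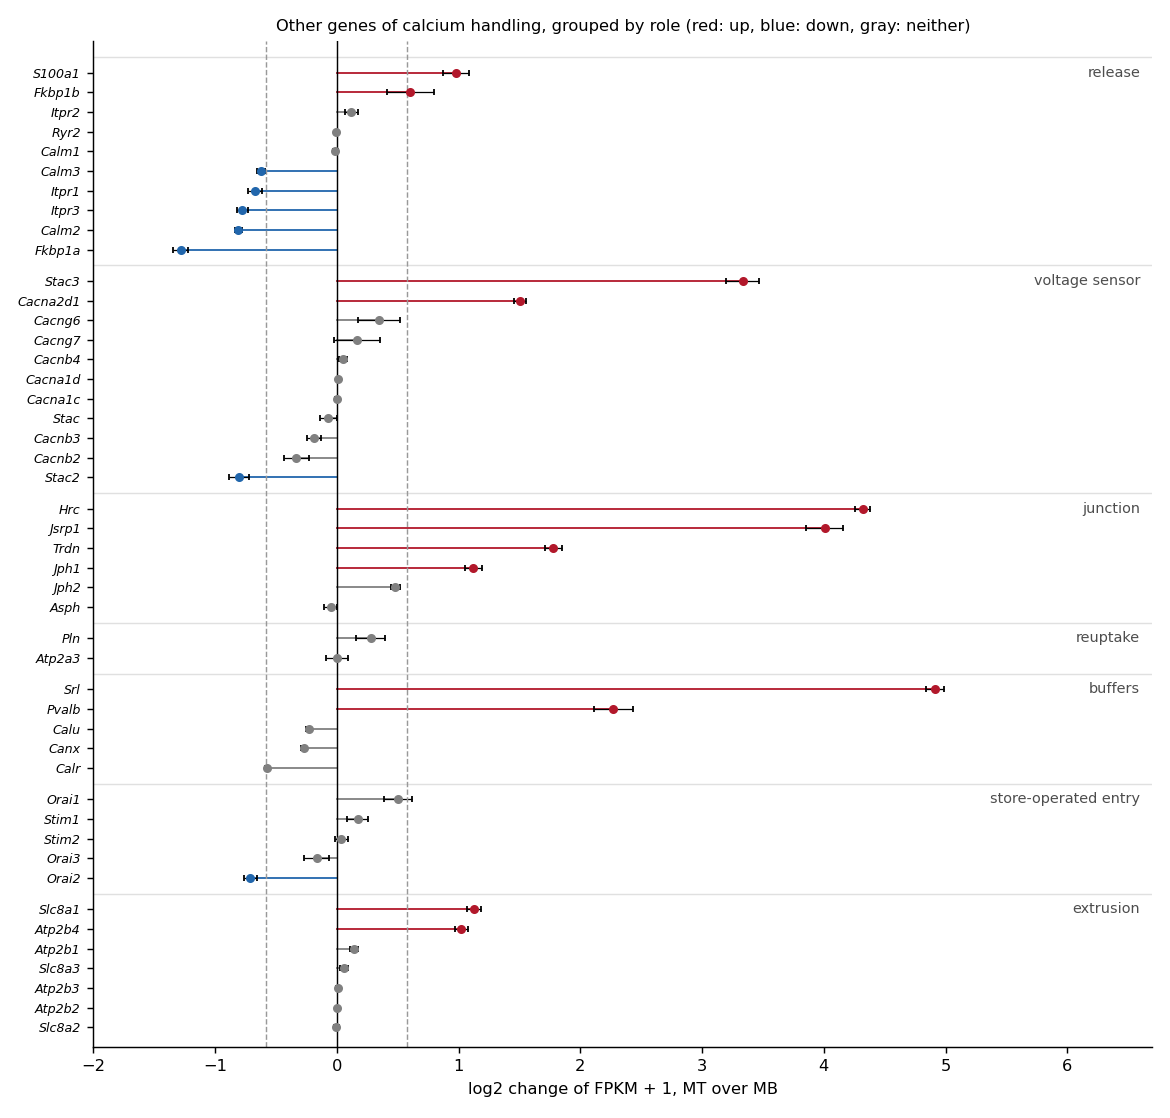
The log2 change of FPKM + 1 from MB to MT of 46 other calcium genes on the deposited scale, grouped by role, with intervals and dashed lines at 0.58 in either direction. The 12 genes that rose include 4 of the 6 junction genes, and 5 of the 7 that fell belong to the release group. None of the 7 was down past the fold change after rescaling to the sum of named entries. When that sum took only loci of 300 bp or more, 1 gene was down.

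The genes whose levels were most like those of each gene were found by the distance in log2 of FPKM + 1 over the 4 libraries, among 23266 entries. Among the 10 genes, Cacna1s was one of the 3 closest to Ryr1 (0.35) and to Casq1 (0.37), and each of these was one of the 3 closest to Cacna1s. Srpk3 was near both Ryr1 (0.30) and Cacna1s (0.40). Atp2a1 was closest to Ckm (0.46), followed by Myom2 and Klhl41. Casq2 was closest to Myh3 (0.46), with Chrng and Mybph next. The nearest to Cacnb1 was Macrod1 (0.44) and to Cacng1 it was Dag1 (0.23). Atp2a2 had the nearest neighbour of all, Pacsin2 at 0.063. Ryr3 was closest to Htr2b (0.21), then to Fzd4 and 2610307P16Rik, which were likewise higher in MT than in the other libraries. With 4 libraries these distances describe levels only.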

How the data were processed

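Per the labels and the study's methods, total RNA libraries were strand-specific and sequenced on one platform and polyA libraries on another. The authors trimmed reads, dropped those under 36 bp, aligned to mm9 (TopHat 2.0.13), estimated abundance (Cufflinks 2.1.1) and deposited FPKM values with a 95% interval. The annotation is not given in the sources used here. Read as counting error alone, the interval widths imply 59960176 fragments in MB, 54442423 in MT, 21341051 in si-NC and 14592480 in si-hnRNPL over all entries. These sums are not comparable as depth between the total RNA and polyA libraries, since some abundant polyA entries have wider intervals than counting error gives.

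Entries whose status was not OK were left out, changes were log2((FPKM + 1) ratio), and intervals came from the half-widths by the delta method. Positions are in mm9, counted from 1, and exons come from GENCODE vM1 of the same build. Promoters come from RefSeq (table of GRCm38.p6). The text names the 10 genes, listed calcium genes, markers, Hnrnpl and the 3 nearest entries of each gene. Overlapping entries and the places named by order of change were added after values were seen. The genes and lists were chosen with earlier results of these data known. Alternatives were pseudocounts of 0.1 and 0.01, a fold change of 2, a filter at FPKM 1, centring on the median and rescaling to the FPKM sum. Python 3.11.15 with numpy 2.4.6 and pandas 2.3.3 was used, and the calculation was tested on simulated data. GRO-seq and CLIP-seq were not analysed here.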

Additional observations from a re-analysis of the deposited data

How the results depend on the processing

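The numbers of genes up (8 from MB to MT, 0 between the siRNA libraries) and down (0 in both) stayed within 1.5 times under every alternative, and Atp2a2 made the only change of call among the 10 genes, to up after rescaling to the FPKM sum of named entries. The median log2 change from MB to MT, 3.23, was 4.81 with a pseudocount of 0.1, 5.41 with 0.01, 3.46 when centred on the median of entries, 4.69 after rescaling to the sum of named entries and 4.51 when that sum took only loci of 300 bp or more, an alternative chosen after seeing the data. Over all named entries, centring turned 7.91% up and 13.8% down into 12.4% and 8.97%, and rescaling into 34.6% and 3.27%. With pseudocounts of 0.1 and 0.01, 3391 and 5027 entries were up and 4231 and 5159 down, against 1934 and 3381. With a fold change of 2 the numbers were 928 and 1559. Between the siRNA libraries 172 entries were up and 104 down, against 829 and 639 at 0.1, 1738 and 1720 at 0.01, 38 and 17 with a fold change of 2, and 230 and 359 after rescaling. Among the 10 genes, no sign of a called change turned, and called changes occurred only from MB to MT. Signs of changes that were not called did turn after rescaling to the sum of named entries. Between the siRNA libraries Cacng1 went from 0.11 to -0.0030 and Cacna1s from 0.020 to -0.090. From MB to MT Atp2a2 went from -0.0079 to 1.06. For the ratios inside a library only the pseudocount was varied, which cannot turn their sign, so the sign was not put to a test. Among the 7 other calcium genes called down from MB to MT, the signs of Itpr1, Itpr3, Calm2, Calm3, Stac2 and Orai2 turned after rescaling to the sum of named entries, to between 0.16 and 0.44, and Fkbp1a stayed at -0.24. No paired analysis was possible because each condition had 1 library and the labels give no replicate numbers. Depth limits the MB values of Cacna1s and Casq1, which rest on 4.18 and 6.0 implied fragments.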
